A study of Homo sapiens with 8 samples.

Results

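The genes described here are 48 genes of DNA replication and the G1/S transition, chosen by symbol as genes of replication licensing, the replication fork, nucleotide synthesis and S phase entry. All 48 were found among the 37526 gene names listed for all 8 libraries. They were measured by RNA-seq in NB4 cells, an acute promyelocytic leukemia (APL) line that carries the PML/RARα fusion, in 4 conditions with 2 libraries each. Scramble cells (labelled shNC) carried the control vector, which the labels call empty vector and the methods of the study a scrambled shRNA, and shKDM3B cells carried an shRNA against the histone H3K9 demethylase KDM3B. Both were collected undifferentiated, without ATRA, and differentiated, after all-trans retinoic acid (ATRA, 1 µM for 24 or 48 h, the labels do not say which), the drug that drives APL cells to mature towards granulocytes. All cells were stably transduced with pLVX-shRNA2-puro, which of the KDM3B shRNAs was sequenced is not given in the sources used here, and nothing says that the 2 replicates were separate cultures. P-values therefore measure the spread between these libraries, which may be technical.

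Replication starts when ORC, CDC6 and CDT1 load the MCM2 to MCM7 helicase onto origins in G1, a step called licensing. At the G1/S transition cyclin E with CDK2, and CDC7 with DBF4, turn the loaded helicase on together with CDC45, the GINS complex and MCM10, and polymerases α, δ and ε then copy the DNA behind it with the PCNA clamp. Many of these genes are transcribed by E2F factors, which the retinoblastoma protein holds back in resting cells, so their transcripts are widely read as a mark of cells in cycle. Bulk RNA cannot tell fewer cells in S phase from less RNA per cell.

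Because E2F links many of the 48 genes, their promoters were searched for 4 common forms of the E2F word, TTTCGCGC, TTTGGCGC, TTTCCCGC and TTTGCCGC, on both strands, where matches may overlap. Of the 48 genes, 42 had a RefSeq promoter (GRCh38.p14, 250 bases before to 50 after the start), and 22 of those 42 (52.38%) held a word, against 526 of 9819 promoters (5.357%) of genes tested in any comparison and 908 of all 27305 (3.325%). A CCAAT box, counted in the same way, was in 54.76% of the 42 promoters and in 36.47% of those of tested genes, and the E-box CACGTG in 11.9% and 10.34%. Stretches of 80 bases before the start are shown for 6 genes, to let the word be seen in E2F genes themselves and in a helicase subunit, the clamp, a polymerase and the ligase. They are written 5′ to 3′ on the strand of the gene, with each E2F word, in either orientation, in capitals.
E2F1 (chr20:33686386-33686465, minus strand): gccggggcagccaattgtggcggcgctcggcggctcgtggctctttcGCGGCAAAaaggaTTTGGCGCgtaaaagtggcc
E2F2 (chr1:23531234-23531313, minus strand): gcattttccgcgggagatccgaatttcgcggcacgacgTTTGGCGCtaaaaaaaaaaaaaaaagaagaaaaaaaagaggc
MCM6 (chr2:135876519-135876598, minus strand): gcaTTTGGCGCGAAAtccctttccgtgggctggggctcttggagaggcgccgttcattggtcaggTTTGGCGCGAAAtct
PCNA (chr20:5126638-5126717, minus strand): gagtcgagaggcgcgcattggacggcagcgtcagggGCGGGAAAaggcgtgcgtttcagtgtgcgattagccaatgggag
POLA1 (chrX:24693745-24693824, plus strand): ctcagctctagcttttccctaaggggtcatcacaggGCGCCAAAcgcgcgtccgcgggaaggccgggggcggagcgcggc
LIG1 (chr19:48170415-48170494, minus strand): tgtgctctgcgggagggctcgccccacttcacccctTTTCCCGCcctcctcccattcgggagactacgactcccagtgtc
MCM6 held 4 words in 2 places, each place reading as a word on both strands, and E2F1 held 2. A match describes these letters only and is no measurement of binding.

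Gene counts per library ran from 9708739 to 33017787, and no member had fewer than 218 counts in any library. The libraries fell apart in a way that the conditions did not explain. Of the uniquely placed pairs, 8.49% to 9.62% were assigned to no gene in the 4 untreated libraries and 9.36% in scramble+ATRA replicate 1. The share was 50.0% in scramble+ATRA replicate 2 and 51.4% and 51.0% in the 2 shKDM3B+ATRA libraries. Such pairs are called pairs outside genes below. Some may instead lie opposite to a gene, since the strand setting of the counting is not stated. For scramble cells the members' calls and medians with ATRA are also given without scramble+ATRA replicate 2, whereas shKDM3B+ATRA has no library without the high share. Levels are given as CPM, the counts of a gene scaled to 1e6 counts per library with TMM factors. KDM3B itself was at 187 and 188 CPM in scramble and 76.3 and 86.1 CPM in shKDM3B, and with ATRA at 196 and 121 CPM in scramble and 52.4 and 57.3 CPM in shKDM3B. MPO, a granule enzyme of promyelocytes, led its marker list at 4282 and 5340 CPM in scramble, 8335 and 9512 CPM in shKDM3B, 729 and 616 CPM in scramble+ATRA and 3126 and 2219 CPM in shKDM3B+ATRA, so it differed between the groups of every comparison. The summed level of 10 genes of later granulocyte maturation was 431 to 452 CPM in scramble, 253 to 266 CPM in shKDM3B, 3312 to 3594 CPM in scramble+ATRA and 1517 to 1848 CPM in shKDM3B+ATRA. ELANE was at 0 in every ATRA library, CEACAM8 in all but the shKDM3B+ATRA group, LCN2 in all but the scramble+ATRA group and LTF in shKDM3B+ATRA. Markers of T cells and of erythroid cells summed to at most 1.57 CPM in a library. CD79A, a part of the B cell receptor, was at 1.28 to 3.21 CPM in the untreated libraries, 16.4 and 16.1 CPM in scramble+ATRA and 6.95 and 8.24 CPM in shKDM3B+ATRA. Among 4 epithelial markers EPCAM stood at 13.0 to 18.9 CPM with the others at 0. The part of these shifts in cell state in the values of the replication genes was not tested.

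Per kilobase of canonical transcript, the members spanned a 39.7-fold range of levels in untreated scramble cells. PCNA, the clamp that holds polymerases on DNA, stood highest at 352 ± 66.8 CPM per kb (SD, n = 2), and MCM7, a subunit of the helicase, at 334 ± 36.4 CPM per kb. Their libraries overlapped. MCM3 (180 ± 19.3), SLBP, which binds the stem-loop of histone mRNAs (176 ± 29.5), and TYMS, which makes thymidylate (173 ± 23.3 CPM per kb), followed and did not separate either. E2F2 was lowest at 8.88 ± 0.418 CPM per kb, below CLSPN, the adaptor of the fork checkpoint, at 10.6 ± 1.56 CPM per kb. Of the 6 subunits of the MCM ring, MCM5 was lowest at 54.1 ± 2.73 CPM per kb.

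**Figure D1:**
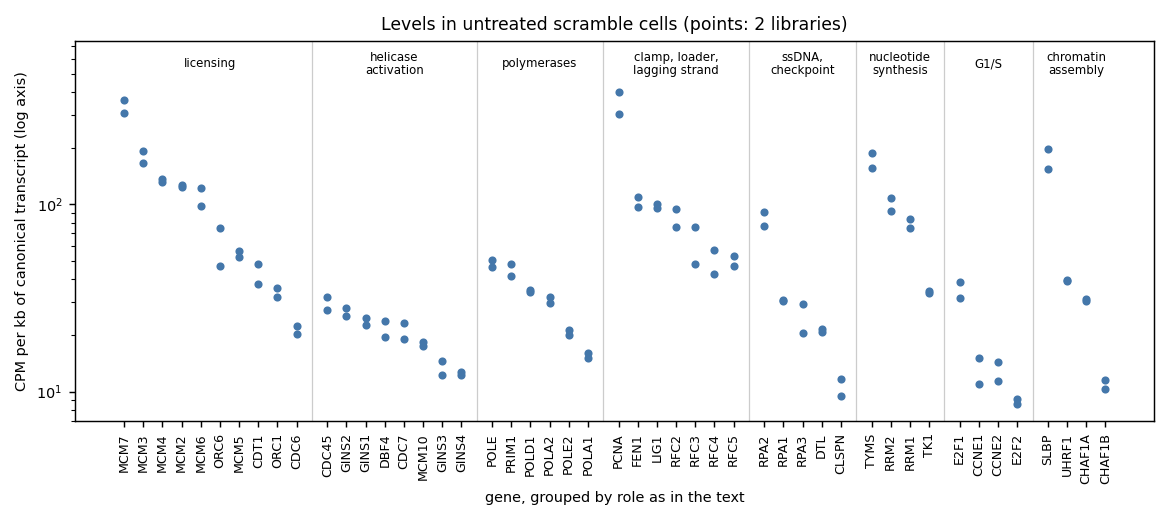
Levels of the 48 genes in untreated scramble cells, in CPM per kilobase of canonical transcript (log axis), grouped by role and ordered by mean; each point is 1 of 2 libraries. PCNA and MCM7 stand at the top and E2F2 at the bottom.

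The first comparison asked how replication genes stood after KDM3B was silenced in undifferentiated cells. The summed level of the 48 genes was 8840 and 7835 CPM in scramble and 7642 and 7514 CPM in shKDM3B, so the groups did not overlap, although the gap between the scramble libraries exceeded the gap between the groups. CCNE1, which encodes cyclin E1 (chr19:29811991-29824312, plus strand), was the 1 member called by the rule given below. It was at 21.4 and 29.6 CPM in scramble and 42.3 and 45.0 CPM in shKDM3B. Both shKDM3B libraries lay above both scramble libraries, and the log2 fold change was 0.78 ± 0.20 (SE; unadjusted P = 0.00499, adjusted p = 0.211, quasi-likelihood F test of edgeR, Benjamini-Hochberg adjusted). The call rule took the thresholds of the study, an unadjusted P under 0.05 together with a fold of at least 1.5. By that rule 1 of 48 members was called higher, where 3.52% of the 12388 genes tested were, and 0 were called lower, where 3.53% were. Neither share stood above the background. No member had an adjusted p under 0.05 in this fit, nor did any of the 12388 genes. That depended on the test, since 1 member, with a higher level, and 268 genes did with DESeq2, 1 and 365 with the likelihood ratio test of edgeR, and 1 and 578 with no filter on low counts. With the replicate number as a block in the edgeR fit, 6 members (12.5%, 5 of them lower) and 1060 genes (8.56%) did. No label ties these numbers to a culture. Without scramble replicate 1 no member was called, CCNE1 included.

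Below that rule most members leaned down. The log2 fold change was under 0 for 37 of 48 members, against 49.5% of all genes tested, with a median of -0.11 against 0.003. Every shKDM3B library lay below every scramble library for 20 members (41.7%), against 19.6% of all genes, and above for CCNE1, POLD1 and POLE2 (6.25%), against 21.2%. The median moved to -0.05 without scramble replicate 1 and to -0.21 without scramble replicate 2. An unadjusted P under 0.05 was reached by 7 members, against 10.5% of all genes, and 6 of those had a lower level in shKDM3B, where 4.59% of all genes did. Without scramble replicate 1, 1 member did (2.08%, against 7.35% of all genes).

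By role, the lowest medians were those of G1/S regulators (log2 -0.40), nucleotide synthesis (-0.34) and chromatin assembly (-0.28). All 4 genes of nucleotide synthesis were lower in both shKDM3B libraries than in both scramble libraries, as were 19.6% of all genes. Of these, TYMS and TK1 had an unadjusted P under 0.05 in the edgeR test. TK1, the thymidine salvage kinase, was at 48.3 and 49.4 CPM in scramble and 30.9 and 40.8 CPM in shKDM3B (log2 -0.44 ± 0.19, unadjusted P = 0.0443 in the same edgeR test). TYMS was at 305 and 252 CPM against 208 and 221 CPM, and 47.91% of its exon length is shared with exons of ENOSF1 and TYMSOS on the other strand, whose reads cannot be told apart since the strand setting of the counting is not stated. RRM2 and RRM1, the subunits of ribonucleotide reductase, had log2 fold changes of -0.31 ± 0.17 and -0.12 ± 0.14.

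E2F1 stood at 103 and 84.8 CPM in scramble and 66.1 and 76.3 CPM in shKDM3B (log2 -0.40 ± 0.17, unadjusted P = 0.045). Its neighbour in function E2F2 was at 44.6 and 47.7 CPM against 32.1 and 38.1 CPM (log2 -0.39 ± 0.17, unadjusted P = 0.0506). CCNE2, cyclin E2, went the other way from CCNE1, at 38.5 and 30.3 CPM in scramble and 25.6 and 22.4 CPM in shKDM3B (log2 -0.52 ± 0.20, unadjusted P = 0.03). For all 3 genes both shKDM3B libraries were lower than both scramble libraries, but none reached a fold of 1.5 and none had an adjusted p under 0.40. Exons of INTS8 and ENSG00000272509, both read from the other strand, together overlap 37.14% of the exon length of CCNE2.

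PCNA was at 510 and 389 CPM in scramble and 330 and 315 CPM in shKDM3B (log2 -0.48 ± 0.17, unadjusted P = 0.0213), and DBF4, the activator of the CDC7 kinase, at 87.5 and 71.8 CPM against 55.8 and 61.2 CPM (log2 -0.44 ± 0.17, unadjusted P = 0.0282). UHRF1, CHAF1A, CHAF1B and SLBP, genes of chromatin copying and histone supply, were each lower in both shKDM3B libraries, as were 19.6% of all genes. Their log2 fold changes ran from -0.31 to -0.07, none with an unadjusted P under 0.05 in the edgeR test. Licensing genes had a median of -0.10. The MCM2 to MCM7 sum was 3107 and 2800 CPM in scramble and 2809 and 2751 CPM in shKDM3B, which overlap, and the median log2 fold change of the 8 genes of helicase activation was -0.01.

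**Figure D2:**
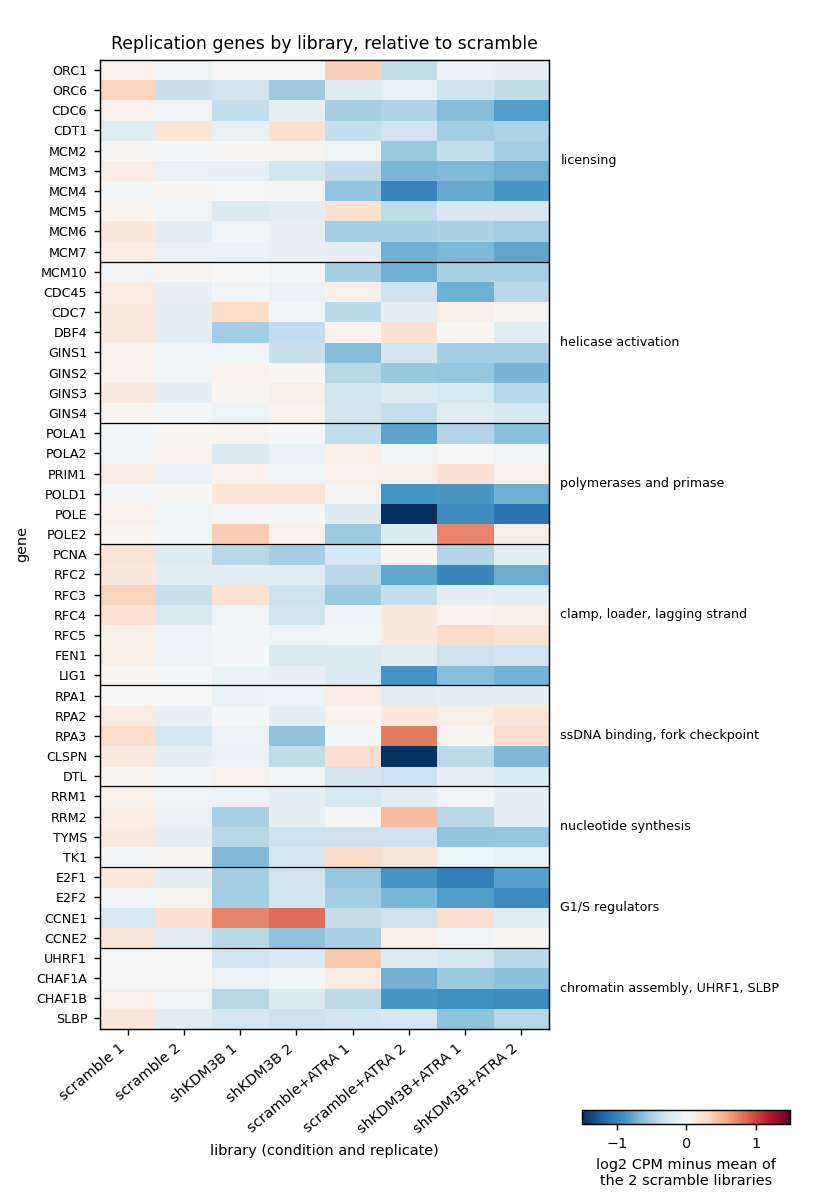
Level of each of the 48 genes (rows, by role) in each of the 8 libraries (columns), as log2 CPM minus the mean of the 2 scramble libraries; the colour scale ends at -1.5 and 1.5. CCNE1 is the red row in shKDM3B, and POLE and CLSPN are darkest in scramble+ATRA replicate 2.

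With ATRA the summed level of the 48 genes in scramble cells was 7247 and 6278 CPM, against 8840 and 7835 CPM without it, with no overlap between the groups. Median log2 fold changes were -0.48 for G1/S regulators and -0.37 for licensing and for polymerase genes, whereas they were -0.01 for single-strand binding and fork checkpoint genes and 0.02 for nucleotide synthesis. By the call rule 6 members fell and 0 rose, where 11.6% of the 12429 genes tested fell and 14.1% rose. The 6 members, MCM4, MCM10, RFC2, E2F1, E2F2 and CHAF1B, are 12.5% of the 48, near the background, whereas no member rose. With the DESeq2 test, and with all names of the pair in the edgeR fit, MCM4 and E2F1 were called, and the other calls ended. No member had an adjusted p under 0.05 in this fit (12.9% of all genes did), whereas 2 did with DESeq2, 5 in 1 fit of all 8 libraries (17% of all genes), and 1 each with upper-quartile scaling, no filter and the likelihood ratio test, all lower. In this fit all 10 members with an unadjusted P under 0.05 were lower with ATRA (20.8%, against 12.5% of all genes).

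The direction was more uniform than the calls. The log2 fold change was under 0 for 37 of 48 members (51.2% of all genes), with a median of -0.30 against -0.02. Both ATRA libraries lay below both untreated libraries for 27 members (56.2%, against 30.2% of all genes), and above for TK1 alone (against 27.2%). With either scramble library left out the call rule gave 0 members. The share of all genes called lower was then 5.14% without replicate 1 and 4.2% without replicate 2, with no gene at an adjusted p under 0.05 in the edgeR test and 11.9% and 11% at an unadjusted P under 0.05. The members' median lay between -0.19 and -0.34.

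The log2 fold change was below 0 for 9 of 10 licensing genes, against 51.2% of all genes. Both ATRA libraries lay below both untreated ones for 7 of them, against 30.2% of all genes. MCM4, a helicase subunit (chr8:47960185-47978160, plus strand), fell from 537 and 557 CPM in scramble to 361 and 272 CPM in scramble+ATRA. The groups were well apart, and the log2 fold change of -0.79 ± 0.22 was the lowest of the 48 (unadjusted P = 0.00921, adjusted p = 0.0634, same edgeR test). MCM3, MCM6 and the loader CDC6 had log2 fold changes of -0.53 ± 0.22, -0.51 ± 0.21 and -0.48 ± 0.20, with unadjusted P of 0.0452, 0.0471 and 0.0462, under the fold of 1.5. ORC1, the largest subunit of the origin recognition complex, was at 112 and 99.9 CPM without ATRA and 135 and 81.9 CPM with it, and the groups overlapped.

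Among helicase activators MCM10, a factor that helps the loaded helicase open DNA (chr10:13161558-13211110, plus strand), fell from 79.4 and 84.0 CPM to 57.8 and 49.5 CPM. Its groups did not overlap (log2 -0.61 ± 0.21, unadjusted P = 0.0231, adjusted p = 0.113). The 4 GINS genes were each lower in both ATRA libraries, as were 30.2% of all genes. Their sum went from 236 and 215 CPM to 166 and 174 CPM. Their log2 fold changes from -0.49 to -0.24 did not pass the test. DBF4 was at 87.5 and 71.8 CPM without ATRA and 82.3 and 93.1 CPM with it, and the libraries overlapped.

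At the fork, RFC2, a subunit of the clamp loader (chr7:74231499-74254458, minus strand), fell from 159 and 128 CPM to 107 and 83.0 CPM (log2 -0.60 ± 0.23, unadjusted P = 0.0358, adjusted p = 0.148), and the groups did not overlap. The other subunits did not follow as a set, RFC5 being at 111 and 98.5 CPM against 99.8 and 117 CPM. POLA1, the catalytic subunit of polymerase α, had a log2 fold change of -0.56 ± 0.23 (unadjusted P = 0.0435). POLE, the catalytic subunit of polymerase ε, was at 397 and 361 CPM without ATRA but at 329 CPM in scramble+ATRA replicate 1 and 128 CPM in replicate 2, and with that spread its log2 fold change of -0.73 ± 0.41 did not pass (unadjusted P = 0.114). PRIM1, the primase, was at 68.5 and 58.9 CPM against 67.1 and 68.1 CPM.

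E2F1 (chr20:33675477-33686385, minus strand) fell from 103 and 84.8 CPM to 63.2 and 50.7 CPM with ATRA (log2 -0.72 ± 0.23, unadjusted P = 0.0154, adjusted p = 0.0888). E2F2 (chr1:23506438-23531233, minus strand) fell from 44.6 and 47.7 CPM to 32.3 and 28.6 CPM (log2 -0.60 ± 0.21, unadjusted P = 0.0252, adjusted p = 0.12). CHAF1B, a subunit of the chromatin assembly factor that places histones behind the fork (chr21:36385392-36419015, plus strand), fell from 51.5 and 46.2 CPM to 37.2 and 26.7 CPM (log2 -0.61 ± 0.25, unadjusted P = 0.0411, adjusted p = 0.162). For all 3 the ATRA libraries lay wholly below the untreated ones.

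Other members had higher or overlapping libraries. TK1 was at 48.3 and 49.4 CPM without ATRA and 59.6 and 56.3 CPM with it (log2 0.25 ± 0.21, unadjusted P = 0.272). RPA3, the smallest subunit of the single-strand binding protein, was at 59.2 and 41.3 CPM against 48.8 and 84.3 CPM, and CLSPN at 99.3 and 80.5 CPM against 106 and 31.9 CPM. Both overlapped, and the ATRA replicates of CLSPN lay on either side of the untreated libraries. CCNE2 was at 24.4 and 36.7 CPM with ATRA and UHRF1 at 200 and 134 CPM against 152 and 154 CPM.

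The 2 scramble+ATRA libraries differed from each other by at least 1.5-fold for 9 members, against 29.8% of the 13528 genes compared, whereas in scramble, shKDM3B and shKDM3B+ATRA 2, 0 and 1 members did (10.9%, 9.33% and 8.94% of genes). CLSPN, POLE, POLD1, CHAF1A, ORC1, LIG1, MCM5 and MCM7 were lower in replicate 2 and RPA3 higher. Against the same scramble libraries, replicate 1 alone, whose share of pairs outside genes was that of untreated libraries, gave 3 members called lower (MCM4, GINS1 and RFC3) and 0 higher, a median of -0.26 and 35 members below 0. There 12.9% of all genes were called higher and 12.1% lower. Replicate 2 alone, with 50.0% outside genes, gave 14 called lower and RPA3 called higher, a median of -0.32 and 38 members below 0, with 20.6% of all genes called higher and 18.3% lower. MCM4 was called in both. The lone library is taken in these fits to vary like the untreated pair, and the part of the outside-gene share in the calls was not tested.

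**Figure D3:**
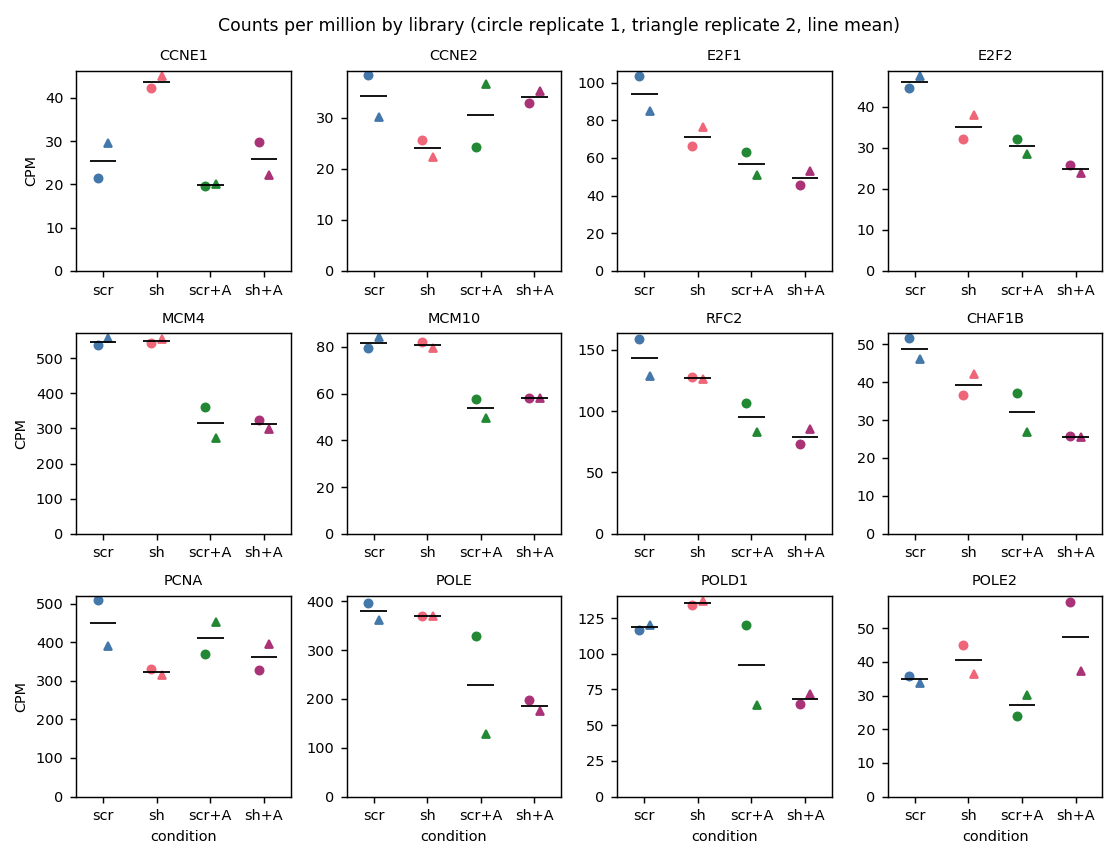
CPM of 12 genes in each library, with circles for replicate 1, triangles for replicate 2 and a line at the mean; scr is scramble, sh is shKDM3B and A is ATRA. POLE and POLD1 separate the 2 scramble+ATRA libraries, whereas MCM4, MCM10, E2F1 and E2F2 are lower in all 4 ATRA libraries than in scramble.

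In shKDM3B cells the summed level of the 48 genes was 7642 and 7514 CPM without ATRA and 6120 and 6030 CPM with it, and that of MCM2 to MCM7 was 2809 and 2751 CPM against 1972 and 1855 CPM. Neither overlapped. The jump in pairs outside genes lies exactly between these groups, so it and ATRA cannot be told apart here. By the call rule 8 members fell and 0 rose, where 19.9% and 22.7% of the 12756 genes tested did, so the 8 (16.7%) stood below the background. An adjusted p under 0.05 was reached by 20 members with lower levels (41.7%, against 24.9% of all genes) and by 1 with a higher level, CCNE2 (25.7% of all genes). Without shKDM3B+ATRA replicate 1 or replicate 2, 8 and 7 members did, all lower (16.7% and 14.6%), near the 15.6% and 16.3% of all genes that were lower there. In 1 fit of all 8 libraries 8 members did, again all lower (16.7%, against 13.3% of all genes). The median was -0.23 against -0.01 for all genes, and 34 members were below 0 (50.4% of genes). Both ATRA libraries were below both untreated ones for 31 members (38.7% of genes) and above for 8 (38% of genes).

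The largest falls of the 48 genes were in the catalytic subunits of polymerases δ and ε. POLD1, polymerase δ (chr19:50384204-50418018, plus strand), fell from 134 and 137 CPM to 64.5 and 71.5 CPM (log2 -0.99 ± 0.13, adjusted p = 0.000191, quasi-likelihood F test of edgeR, Benjamini-Hochberg adjusted). POLE (chr12:132623753-132687376, minus strand) fell from 371 and 370 CPM to 198 and 175 CPM (log2 -0.99 ± 0.12, adjusted p = 0.000151). The groups were far apart for both. In scramble+ATRA replicate 1, whose share of pairs outside genes was that of untreated libraries, POLD1 was at 120 CPM and POLE at 329 CPM. In scramble+ATRA replicate 2 they were at 64.1 and 128 CPM. Untreated scramble libraries had POLD1 at 117 and 120 CPM and POLE at 397 and 361 CPM. POLD2, an accessory subunit of polymerase δ outside the 48 genes and named after its values were seen, fell from 247 and 301 CPM to 131 and 124 CPM (log2 -1.11 ± 0.14, adjusted p = 0.000154). POLE2, an accessory subunit of polymerase ε, and POLA2, of polymerase α, had log2 fold changes of 0.23 ± 0.21 and 0.13 ± 0.12, which did not pass.

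MCM4 fell from 545 and 554 CPM to 324 and 299 CPM (log2 -0.82 ± 0.12, adjusted p = 0.000369). MCM7 (chr7:100092233-100101940, minus strand) fell from 767 and 756 CPM to 517 and 478 CPM (log2 -0.61 ± 0.11, adjusted p = 0.00179), and GINS2 (chr16:85676198-85690073, minus strand) from 72.9 and 70.9 CPM to 46.9 and 43.3 CPM (log2 -0.67 ± 0.13, adjusted p = 0.00278). In licensing 7 of 10 genes had an adjusted p under 0.05, all lower, against the 24.9% of all genes, in the fit whose adjusted calls among the 48 dropped with either shKDM3B+ATRA library left out. ORC1, ORC6 and MCM5 were the exceptions.

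CCNE1 fell from 42.3 and 45.0 CPM to 29.8 and 22.1 CPM (log2 -0.75 ± 0.18, adjusted p = 0.00636), which placed it around its untreated scramble level of 21.4 and 29.6 CPM. RFC2 fell from 128 and 126 CPM to 72.7 and 85.1 CPM (log2 -0.69 ± 0.13, adjusted p = 0.00211). CHAF1B fell from 36.5 and 42.1 CPM to 25.8 and 25.4 CPM (log2 -0.62 ± 0.16, adjusted p = 0.00892). The ATRA libraries were below the untreated ones for each of the 3. With DESeq2 size factors, the DESeq2 test or all names of the pair, 6 of the 8 members were called, without MCM7 and CHAF1B. MCM7 and CCNE1 also lost the call without shKDM3B+ATRA replicate 2, RFC2 without replicate 1 of that group and CHAF1B without shKDM3B replicate 2. CCNE2 was at 25.6 and 22.4 CPM without ATRA and 32.8 and 35.3 CPM with it (log2 0.50 ± 0.16, adjusted p = 0.0249), under the fold of 1.5. E2F1 and E2F2 had log2 fold changes of -0.53 ± 0.15 and -0.50 ± 0.16 (adjusted p = 0.0154 and 0.0297), also under 1.5-fold.

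**Figure D4:**
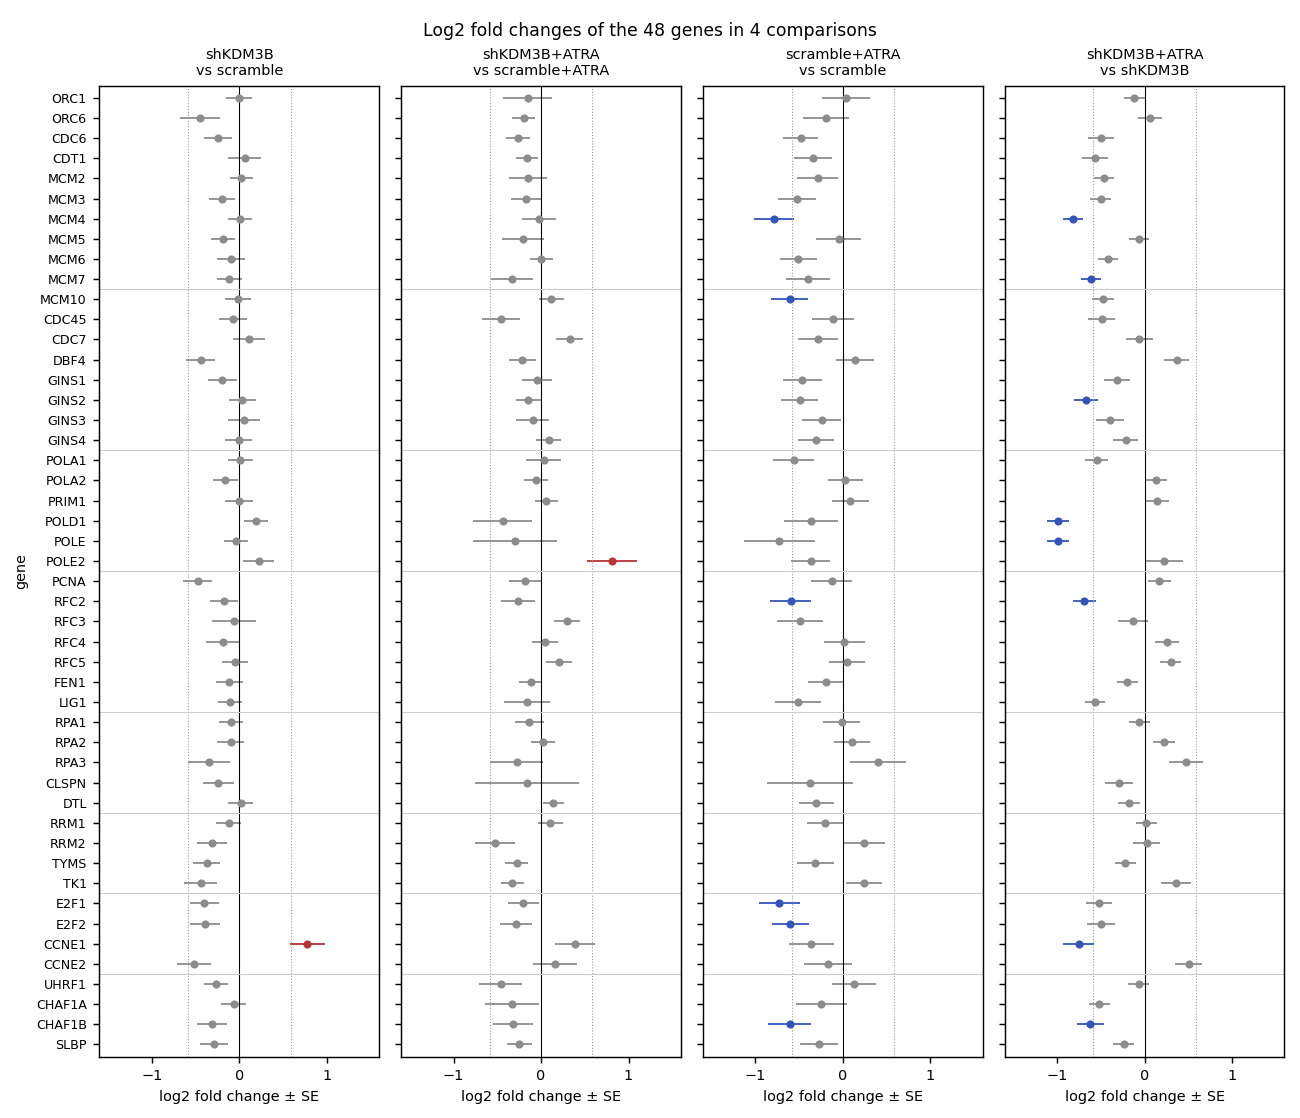
Log2 fold change with its standard error for the 48 genes in the 4 comparisons; blue points were called lower, red points higher and grey points neither, and dotted lines mark a fold of 1.5. Calls are few in both knockdown comparisons (left 2 panels) and lie on the lower side in both ATRA comparisons (right 2 panels).

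The ATRA responses of scramble and shKDM3B cells were set against each other as an interaction over all 8 libraries. No member reached an unadjusted P under 0.05 in that edgeR test, where 4.49% of 13528 genes did, and no gene had an adjusted p under 0.05. With DESeq2, the likelihood ratio test and no filter 24, 19 and 32 genes did, none of them a member. The differences ran from -0.63 ± 0.38 for POLD1 to 0.68 ± 0.32 for CCNE2 on the log2 scale, with a median of 0.05. These standard errors leave room for differences of that size. Without scramble+ATRA replicate 2, 8 members had an unadjusted P under 0.05 (16.7%) and 1 an adjusted p under 0.05 (2.08%), below the 19.6% and 3.61% of all genes. Without replicate 1 of that group 2 and 0 members did, against 6.52% and 0.0142% of all genes. Both ATRA comparisons placed 32 members below 0 and 9 above, against 43.7% and 39.3% of the 11968 genes tested in both. ORC6, PCNA, POLE2, RRM1 and CCNE2 were below 0 in scramble cells alone, and ORC1 and UHRF1 in shKDM3B cells alone. MCM4, RFC2 and CHAF1B were called lower in both (6.25% of the 48, against 9.88% of genes), and 24 members had every ATRA library below every untreated library in both cell lines (25.1% of genes).

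**Figure D5:**
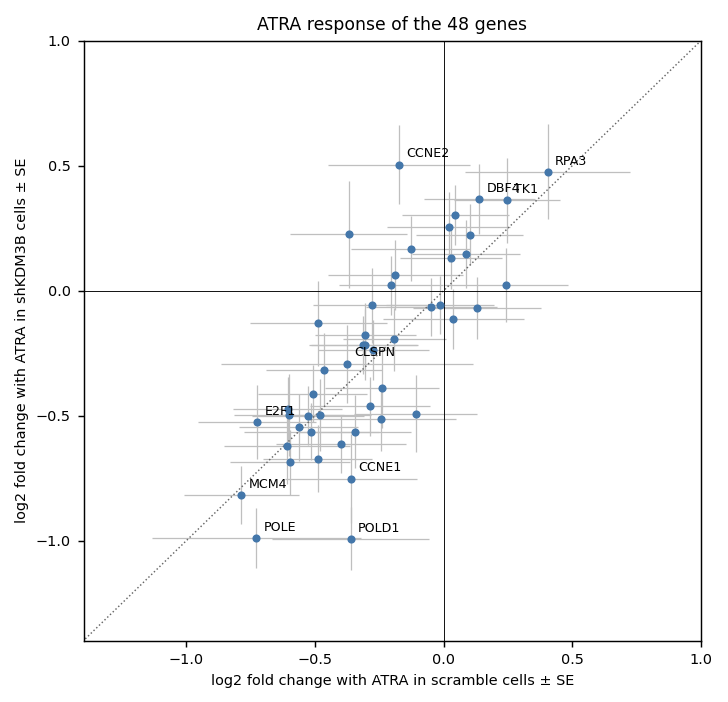
Log2 fold change with ATRA in scramble cells (horizontal) and in shKDM3B cells (vertical) for the 48 genes, with standard errors and a dotted line of equal response. MCM4 and POLE lie low in both cell lines, CCNE2 lies above the line and POLD1 below it.

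The last comparison took both cell lines under ATRA. The 48 genes summed to 7247 and 6278 CPM in scramble+ATRA and to 6120 and 6030 CPM in shKDM3B+ATRA. POLE2, an accessory subunit of polymerase ε (chr14:49643555-49688422, minus strand), was the member called. It was at 24.0 and 30.1 CPM in scramble+ATRA and rose to 57.8 and 37.2 CPM in shKDM3B+ATRA, where the replicates were themselves 1.5-fold apart or more (log2 0.81 ± 0.28, unadjusted P = 0.0424, adjusted p = 0.385, quasi-likelihood F test of edgeR, Benjamini-Hochberg adjusted). By the call rule 1 member was higher (2.98% of 12227 genes) and 0 lower (5.9%), and no member or other gene had an adjusted p under 0.05 in this fit, where 1 member and 12.5% of all genes had an unadjusted P under 0.05. With DESeq2, the likelihood ratio test and no filter, 0 members but 427, 133 and 8 genes had an adjusted p under 0.05. The log2 fold change was below 0 for 33 members (50.7% of genes), with a median of -0.16 against -0.01, and 14 members had both shKDM3B+ATRA libraries lower (26% of genes) and 9 both higher (24.1%). POLE2 lost its call without shKDM3B+ATRA replicate 1, with upper-quartile scaling and with all names of the pair.

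The other calls differed with the scramble+ATRA library taken as control, in fits that take the lone library to vary like the shKDM3B+ATRA pair. Against replicate 2 alone, whose pairs outside genes match those of shKDM3B+ATRA, POLE2 and CLSPN were called higher and RRM2 and RPA3 lower, with a median of -0.004, while 7.27% and 7.92% of all genes were called higher and lower. Against replicate 1 alone, POLE2 was called higher and MCM7, CDC45, POLD1, POLE, UHRF1, CHAF1A and CLSPN lower, with a median of -0.19, where 16.8% of all genes were called higher and 14% lower. CLSPN thus changed direction between the controls, at 106 and 31.9 CPM in the 2 scramble+ATRA libraries and 67.9 and 56.1 CPM in shKDM3B+ATRA. CCNE1 was higher in both shKDM3B+ATRA libraries, at 29.8 and 22.1 CPM against 19.6 and 20.1 CPM, without passing the test (log2 0.39 ± 0.23, unadjusted P = 0.165).

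Members with and without an E2F word were set side by side as a description. With ATRA in scramble cells the 22 with a word had a median log2 fold change of -0.43, and 18 of them had both ATRA libraries below both untreated ones, while the 20 with a promoter but no word had a median of -0.19 and 7 such genes, against 30.2% of all genes. Leaving out single libraries moved these medians between -0.52 and -0.33 with a word and between -0.24 and -0.05 without, the latter at -0.05 without scramble replicate 1 and -0.09 without scramble+ATRA replicate 2. In shKDM3B cells they were -0.44 and -0.09, and leaving out single libraries gave -0.46 to -0.40 and -0.16 to -0.11, the lowest value without a word being that without shKDM3B replicate 2. Of the 6 members called in scramble cells, E2F1 and E2F2 held a word (9.09% of the 22) and MCM10, RFC2 and CHAF1B did not (15% of the 20), against 11.6% of all genes called lower, and MCM4 had no promoter in the table. For the knockdown without ATRA the medians were -0.11 and -0.10, at -0.08 and -0.03 without scramble replicate 1 and -0.23 and -0.19 without scramble replicate 2. The promoters shown above belong to genes of both kinds of response, since MCM6 and POLA1 were lower in every ATRA library than in the untreated cells of the same line, whereas PCNA overlapped in both lines.

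Other genes of the replication pathway moved in both directions with ATRA. Of 62 such genes, 61 were tested, and in scramble cells 6 were called higher (9.84%) and 4 lower (6.56%), both below the 14.1% and 11.6% of all genes. Without scramble+ATRA replicate 2, 3 were higher (4.92%, against 12.9% of all genes) and 6 lower (9.84%, against 12.1%). CDKN1A, the CDK inhibitor p21, rose from 0.552 and 0.629 CPM to 6.92 and 7.37 CPM (log2 3.58 ± 0.42, adjusted p = 0.00217), SAMHD1, which breaks down dNTPs, from 46.0 and 59.8 CPM to 352 and 340 CPM (log2 2.71 ± 0.23, adjusted p = 0.000692), and POLD4, a small polymerase δ subunit, from 0.803 and 1.05 CPM to 4.53 and 3.32 CPM (log2 2.08 ± 0.45). In shKDM3B cells 11 were called higher (18%) and 7 lower (11.5%), below the 22.7% and 19.9% of all genes, among them SAMHD1 at log2 3.22 ± 0.13, POLD4 at 2.14 ± 0.50 and DCK, deoxycytidine kinase, at 1.34 ± 0.21. CDKN1A was lower in shKDM3B+ATRA than in scramble+ATRA, at 0.947 and 1.41 CPM against 6.92 and 7.37 CPM (log2 -2.59 ± 0.37, adjusted p = 0.346), the 1 call of this list in that comparison, where 5.9% of all genes were called lower. Without ATRA, E2F5, an E2F that acts mainly as a repressor, was the 1 call, higher in shKDM3B (log2 0.88 ± 0.24, adjusted p = 0.223), where 3.52% of all genes were. E2F5 lost that call in 1 fit of all 8 libraries and without shKDM3B replicate 1.

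Genes of mitosis were taken as another phase of the cycle. With ATRA their median log2 fold change was 0.08 in scramble cells and 0.17 in shKDM3B cells. Medians were -0.30 and -0.23 for the 48 replication genes, and -0.14 and -0.03 for the 61 other replication genes. Leaving out single libraries moved the mitosis median between -0.01 (without scramble replicate 2) and 0.18 (without scramble replicate 1) in scramble cells. In shKDM3B cells it then lay between 0.13 and 0.24. SPC25, of the kinetochore, was the 1 call in scramble cells (2.5% of the 40, against 14.1% of all genes called higher and 11.6% lower), at 1.65 and 2.30 CPM against 0.803 and 0.881 CPM (log2 1.22 ± 0.49). In shKDM3B cells HMMR, a spindle protein, rose (log2 0.65 ± 0.17) and MKI67, the proliferation marker Ki-67, fell (log2 -0.59 ± 0.12), which is 2.5% of the list each way against 22.7% and 19.9% of all genes. MKI67 lost its call with DESeq2 size factors, the DESeq2 test, 1 fit of all 8 libraries and all names of the pair, and without shKDM3B+ATRA replicate 2, and HMMR without shKDM3B replicate 2. NCAPH, of condensin, was higher in shKDM3B than in scramble without ATRA (log2 0.84 ± 0.16), the 1 call there (2.5%, against 3.52% of all genes higher). Under ATRA 0 of the 40 genes were called between the cell lines, where 2.98% of all genes were higher and 5.9% lower.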

How the data were processed

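RNA-seq counts of 8 NB4 libraries were used. The authors trimmed the reads, aligned them to hg38 and counted them per gene, and the submitters' processing notes name HISAT2, Picard, SAMtools, HTSeq and DESeq2. The deposited files hold raw whole-number counts per gene, without normalization. The strand setting is not given in the sources used here. The files list 56470 names for untreated and 56609 for ATRA-treated libraries. Used were the 37526 shared names, with 96.4% to 99.1% of gene counts. The lists of names thus differ exactly between untreated and ATRA-treated libraries. In both ATRA comparisons this difference and ATRA cannot be told apart.

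The 48 genes, the role groups and the other lists were chosen with earlier results of these data known. TMM factors were computed once over 8 libraries, and CPM and fold changes use them. Each pair of conditions was fitted alone (2 against 2) with filterByExpr and the quasi-likelihood F test of edgeR 4.0.16 in R 4.3.3, and the interaction over all 8 libraries. All 48 genes passed the filter in each fit. The SE is the size of the log2 fold change over the square root of F. Calls needed an unadjusted P under 0.05 and a fold of 1.5, and adjusted p-values (Benjamini-Hochberg) cover all genes of a fit. An exact permutation test of 2 against 2 cannot go below 0.333, so none is given. Depth was 9708739 to 33017787 counts per library.

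Genes named were the 48, with per-library values for those called and for the lowest and highest ATRA response of each role, KDM3B, and up to 3 called genes of each other list per comparison; members that reached an unadjusted P under 0.05, summed sets, CPM per kb, POLD2 and CD79A were added after their values were seen. Positions, lengths and overlaps come from GENCODE v44. Alternatives were other scalings, filters, DESeq2 1.42.0, the likelihood ratio test, adjusted p-values, all 8 libraries in 1 fit, all names of a pair, the replicate block and each library left out. The set without opposite-strand overlap (27 of 48 genes) was added after seeing the data. 1 item of a marker list is not reported here. The fits were also run on simulated data, with larger changes than the members showed and the same dispersion for every gene and library. That setting does not match the uneven spread of these libraries. Python 3.11.15 with pandas 2.3.3 and numpy 2.4.6 made the tables.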

Additional observations from a re-analysis of the deposited data

How the results depend on the processing

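No member with an unadjusted P under 0.05 in a comparison changed sign there under any alternative. CLSPN, which did not pass under ATRA, was called higher without scramble+ATRA replicate 1 and lower without replicate 2. Members with an unadjusted P under the threshold stayed under it in 82, 10, 97 and 343 recalculations and did not in 23, 5, 53 and 32, in shKDM3B against scramble, under ATRA, and for ATRA in scramble and in shKDM3B cells. Leaving out libraries moved members called higher from 1 to between 0 and 1 and lower from 0 to between 0 and 3 in shKDM3B against scramble (median -0.206 to -0.0459). Under ATRA it gave 0 to 2 and 0 to 7 (median -0.193 to -0.00431), for ATRA in scramble cells 0 to 1 and 0 to 14, in shKDM3B cells 0 to 2 higher (median -0.33 to -0.19), and for the interaction 0 to 8 members with P under 0.05 (median -0.0612 to 0.136). Other replication genes ranged from 0 to 2 higher and 1 to 2 lower without ATRA, 0 to 6 and 1 to 2 under ATRA, 2 to 10 and 1 to 11 in scramble cells, and 8 to 11 lower in shKDM3B cells. Mitosis genes ranged from 0 to 3 lower without ATRA, 0 to 3 higher and 0 to 2 lower under ATRA, 0 to 2 and 0 to 5 in scramble cells, and 0 to 5 higher and 0 to 2 lower in shKDM3B cells.

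In shKDM3B against scramble, upper-quartile scaling gave a median of -0.16 and 2 other replication genes lower, and 1 fit of all 8 libraries 0 higher. With adjusted p under 0.05, 0 members, other replication or mitosis genes were called there, and KDM3B at log2 -1.21 was not. Under ATRA upper-quartile scaling, all names of the pair and adjusted p gave 0 members higher, adjusted p gave 0 other replication genes lower, and KDM3B at -1.53 missed it. For ATRA in scramble cells DESeq2 called 2 members lower, all names of the pair 2 and adjusted p 0. Library size alone called 7 other replication genes lower, and adjusted p 0 lower and 3 higher. The 1 mitosis gene was lost, leaving 0, without a filter, with DESeq2 and with adjusted p. For ATRA in shKDM3B cells 1 fit of all libraries left 8 members with an adjusted p under 0.05 in place of 21. The members' median was -0.19 with DESeq2's size factors, -0.19 with the DESeq2 test, -0.17 with all names of the pair and -0.41 over the members without opposite-strand overlap. Mitosis genes lower went to 0 with DESeq2's size factors, the DESeq2 test, 1 fit of all libraries and all names, and higher to 2 with no filter and with all names. The interaction gave 2 members with P under 0.05 without a filter. Causes were not tested. Under ATRA, library size alone moved the share of all called genes that were higher from 33.5% to 43.8%.

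The replicate numbers are only shared. The correlations of same-numbered deviations ran from -0.0887 to 0.423 between the groups compared (11690 genes). With the replicate block, 0 members were called higher under ATRA in place of 1, 3 lower for ATRA in scramble cells in place of 6, and 0 mitosis genes higher there in place of 1. In shKDM3B against scramble 6 members had an adjusted p under 0.05 with the block in place of 0 (12.5%), as did 1060 of 12388 genes (8.56%) in place of 0, while 16 members had an unadjusted P under 0.05 in place of 7 (33.3%, against 22.4% of all genes), and 8 members fell in shKDM3B cells as without it, where DESeq2 size factors, the DESeq2 test and all names of the pair gave 6.

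Every member had at least 218 counts per library. Some other genes named were far lower, such as CDKN1A at 0.359 CPM in shKDM3B replicate 1 and SPC25 at 0.803 CPM in scramble replicate 1. The limits are 2 libraries per condition and 3 ATRA libraries with 50.0% to 51.4% of pairs assigned to no gene. Untreated and ATRA-treated libraries also differ in the list of names counted.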
